A study of Mus musculus with 9 samples.

Results

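Cells induced from mouse neural crest cells by a small molecule were compared with the neural crest cells themselves, gene by gene, in 6 RNA sequencing libraries. The crest cells (pNCC, 3 libraries) were primary neural crest cells of mid-gestation (E13.5) mouse embryos grown in DMEM with 10% fetal bovine serum. The induced cells (iCEC, 3 libraries) are labelled induced corneal endothelial cells. They came from crest cells that, at 80% confluence on gelatin, were moved to DMEM/F12 with 5% knockout serum replacement (KSR), 2-mercaptoethanol and 5 µM SB431542, which blocks the TGF-β type I receptor kinases. Serum, basal medium, 2-mercaptoethanol, time in culture and inhibitor therefore differed together between the groups and cannot be told apart. Cell clusters were seen at day 4, and the colonies were studied at day 12. The labels give no day for the RNA and no strain, sex or number of embryos. All genes that passed a filter on low counts within these libraries were tested, which was 16293 of 56481 symbols in the deposited table. The 3 other libraries of the series, of primary corneal endothelial cells, were not analysed here.

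The neural crest is a population of embryonic cells that leaves the edge of the neural tube and gives rise to peripheral neurons, Schwann cells, pigment cells and much of the connective tissue of the head, including the corneal endothelium and stroma. In culture with serum, crest cells grow as a mesenchyme, that is, as separate cells in a collagen matrix. An epithelium is a sheet of cells joined by E-cadherin, desmosomes and tight junctions and filled with keratins. Mesenchymal factors such as Zeb1, Zeb2 and Snai1 repress epithelial genes, and TGF-β is a known inducer of the change from epithelium to mesenchyme. The corneal endothelium lines the cornea from within as a sheet of 1 cell thickness, pumps fluid out of the stroma and lays down Descemet's membrane. Against its name, it is marked by N-cadherin, by ion transporters and by collagen VIII, and not by the keratins of surface epithelia.

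Library totals ran from 32170546 to 47967113 counts, so that 3 counts, the limit that a count of 0 allows, stood at 0.0647 to 0.0920 CPM. CPM are counts scaled to the TMM-adjusted library size, and levels are given in the order of libraries 1, 2 and 3 of each group. The 3 iCEC libraries were less alike than the 3 pNCC libraries. The root mean square distance per gene was 1.65 and 1.72 on the log2 scale from iCEC 3 to iCEC 1 and iCEC 2, 1.14 between iCEC 1 and iCEC 2, and 0.538 to 0.738 within pNCC, against 2.48 to 2.67 between the groups. The Y-linked Ddx3y was read at 0.129, 89.2 and 0 CPM in iCEC against 49.9, 43.9 and 51.4 in pNCC. Xist, the RNA of the inactive X chromosome, was read at 989, 0.182 and 1513 CPM in iCEC against 426, 319 and 208 in pNCC. Y-linked genes were thus near 0 in iCEC 1 and iCEC 3, Xist was near 0 in iCEC 2, and every pNCC library held both. Of the 5 tested sex-linked genes edgeR called 0, with 0 at an unadjusted p under 0.05 and 0 by DESeq2, and without iCEC 2 4 were lower and 1 was higher. The labels do not say whether the libraries of a group are separate cultures or animals, and the p-values measure the spread between these libraries only.

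Of the 16293 tested genes, edgeR called 5093, or 31.3%, at an adjusted p under 0.05. In iCEC 2630 (16.1%) were higher and 2463 (15.1%) lower. The changes were large. Of the called genes, 2183 were higher and 2046 lower by 2-fold or more, 827 and 955 by 16-fold or more, and 265 and 301 by 256-fold or more. A further measure of separation was that the CPM of the groups did not overlap in 8459 genes (51.9%), of which 5069 were also called. At an unadjusted p under 0.05 were 42.8% of the tested genes, and DESeq2 called 40.4%. Without iCEC 1, 2 or 3 edgeR called 4425 of 17005, 4623 of 17022 and 7684 of 17297 tested genes. Without pNCC 1, 2 or 3 it called 2523 of 17265, 2322 of 17255 and 2698 of 17420. In bulk RNA a smaller share of cells of a type and less RNA per cell cannot be told apart, and this holds for every difference below. Unless a library is named beside a gene, its call held and its fold moved by at most 1.5 times when any 1 library was left out. The standard error of the log2 fold change of a called gene was 0.43 in the median, with quartiles of 0.23 and 0.87. Folds are fitted values, and "at least" marks a fold against a group at 0, set at 3 counts in each of its libraries. A fitted log2 value against a group at or near 0 depends on the prior count and is no bound.

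The genes that mark the direction of the change were far apart. The basal keratin Krt5 (chromosome 15, 101707070 to 101712898, minus strand, mm10) was read at 9661, 6373 and 3297 CPM in iCEC against 30.3, 42.0 and 55.8 in pNCC, 151-fold higher in iCEC (log2 7.24 ± 0.58 SE, adjusted p = 0.000811). Trp63 (chromosome 16, 25683763 to 25892102, plus strand), the master factor of stratified epithelia, was read at 259, 306 and 231 CPM in iCEC against 1.53, 1.74 and 0.941 in pNCC and was 188-fold higher (log2 7.56 ± 0.34 SE, adjusted p = 0.000268). E-cadherin, Cdh1 (chromosome 8, 106603351 to 106670246, plus strand), stood at 866, 1060.3 and 560.3 CPM in iCEC against 3.68, 3.64 and 5.41 in pNCC, 195-fold higher (log2 7.61 ± 0.39 SE, adjusted p = 0.000308). All 3 were high in every iCEC library and low but above 0 in every pNCC library. In the other direction, Prrx1 (chromosome 1, 163245119 to 163313710, minus strand), a homeobox factor of limb and head mesenchyme, was read at 3.73, 10.8 and 5.08 CPM in iCEC against 543, 478 and 528 in pNCC, 79.1-fold lower (log2 -6.31 ± 0.50 SE). Adam12 (chromosome 7, 133883199 to 134232146, minus strand), a membrane metalloprotease of mesenchyme, fell to 0.431, 0.303 and 0.524 CPM from 336, 349 and 346 CPM, 809.6-fold lower (log2 -9.66 ± 0.29 SE, adjusted p = 0.000126), among the smallest adjusted p-values of the comparison. None of the 5 overlapped between groups, as was true of 51.9% of all tested genes. Wide gaps were also seen in genes read in both groups, such as Ehf and Bgn below, and in genes silent in one group. Of the silent genes, several were at 0 in every pNCC library. Sftpd, a surfactant collectin of lung and mucosa, was at 72.5, 229 and 121 CPM in iCEC, at least 1583-fold higher. The membrane protease Tmprss4 was at 100.3, 116 and 26.9 CPM (at least 910.1-fold) and Cwh43 at 204, 262 and 61.7 CPM (at least 1976-fold). Others were at 0 in every iCEC library. The microfibril protein Mfap4 was at 628, 291 and 260.01 CPM in pNCC, at least 5036-fold lower in iCEC. The tetraspanin Tspan11 was at 82.7, 78.2 and 130.2 CPM (at least 1244-fold lower) and the chemokine Ccl11 at 76.2, 77.2 and 130.2 CPM (at least 1211-fold). Armcx4 was at 56.7, 61.2 and 72.4 CPM (at least 813-fold), and Agtr2, an angiotensin receptor of fetal mesenchyme, at 74.2, 35.0 and 37.5 CPM (at least 627-fold). The growth factor Igf1 was at 49.5, 26.9 and 19.8 CPM (at least 411-fold) and Frem1, of the basement membrane, at 31.2, 18.1 and 38.5 CPM (at least 375-fold). In all, 121 tested genes were at 0 in all pNCC libraries and 210 in all iCEC libraries. A gene silent in either group passed the filter only through its counts in the other. Of these genes 119 and 210 were called, an outcome that the filter made likely in advance.

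**Figure D1:**
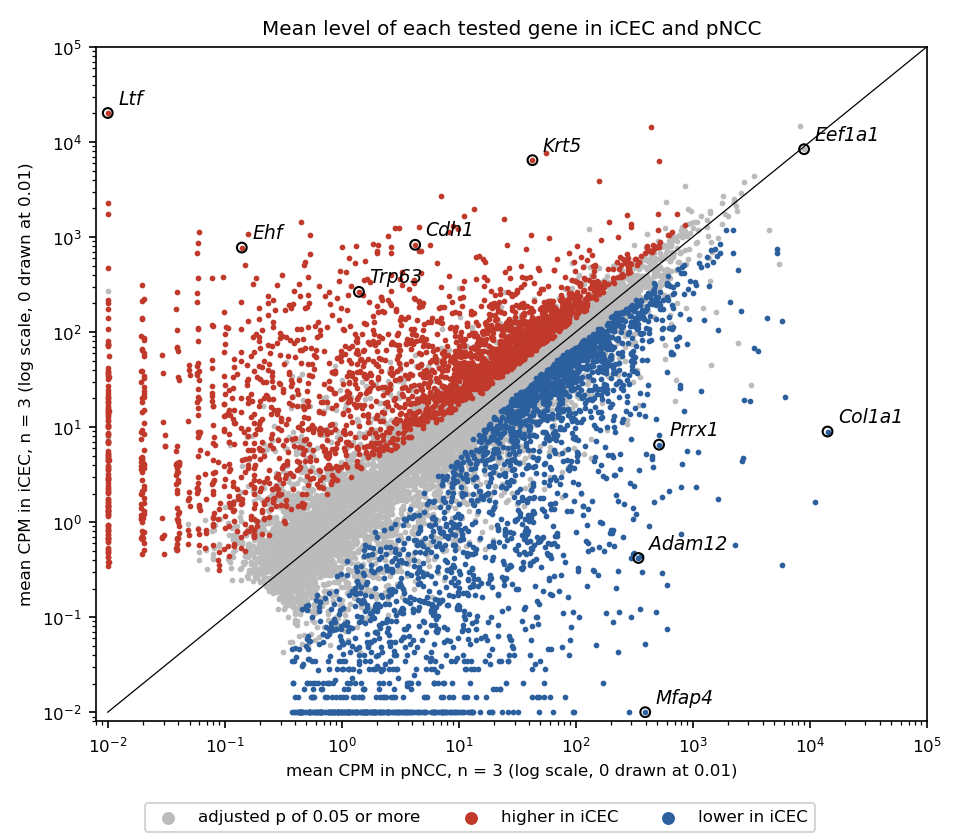
Mean CPM of each tested gene in pNCC (horizontal, log scale) and iCEC (vertical, log scale), n = 3 libraries each, with 0 drawn at 0.01; red points are higher and blue points lower in iCEC at an adjusted p under 0.05, and 10 genes are named. Krt5, Trp63, Cdh1, Ehf and Ltf lie far above the diagonal, Prrx1, Adam12, Col1a1 and Mfap4 far below it, and Eef1a1 on it.

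Gene lists for structures, pathways and cell types showed where the calls lay. Lists of epithelial factors, polarity, keratins, junctions, surface proteins, proteases, cornified envelope and ocular surface had 66.7% to 100% of tested members higher. The share over all tested genes was 16.1%. The mucosal antimicrobial list had 63.6% higher, the airway and gland list 62.5% and the ciliated cell list only 14.3%. The lists of mesenchymal factors, fibrillar matrix, metalloproteases and skeletal muscle had 62.1% to 81.8% lower, against 15.1% of all tested genes. The median log2 fold change over all tested genes was 0.05. A member near 0 in pNCC was tested only if its iCEC counts passed the filter. Shares among tested members of such lists therefore follow in part from the filter. Where edgeR called no member of a list in a direction, no member had an unadjusted p under 0.05 in that direction and DESeq2 called none either, with the following exceptions. By both criteria 1 member each was lower among hemidesmosome and ciliated cell genes and 1 each higher among leukocyte, hedgehog and cholesterol genes. Among Hox genes 3 were lower by both criteria, and 1 was higher by the unadjusted p and 2 by DESeq2. By the unadjusted p alone 1 lens gene and 1 gene of the unfolded protein response were higher.

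**Figure D2:**
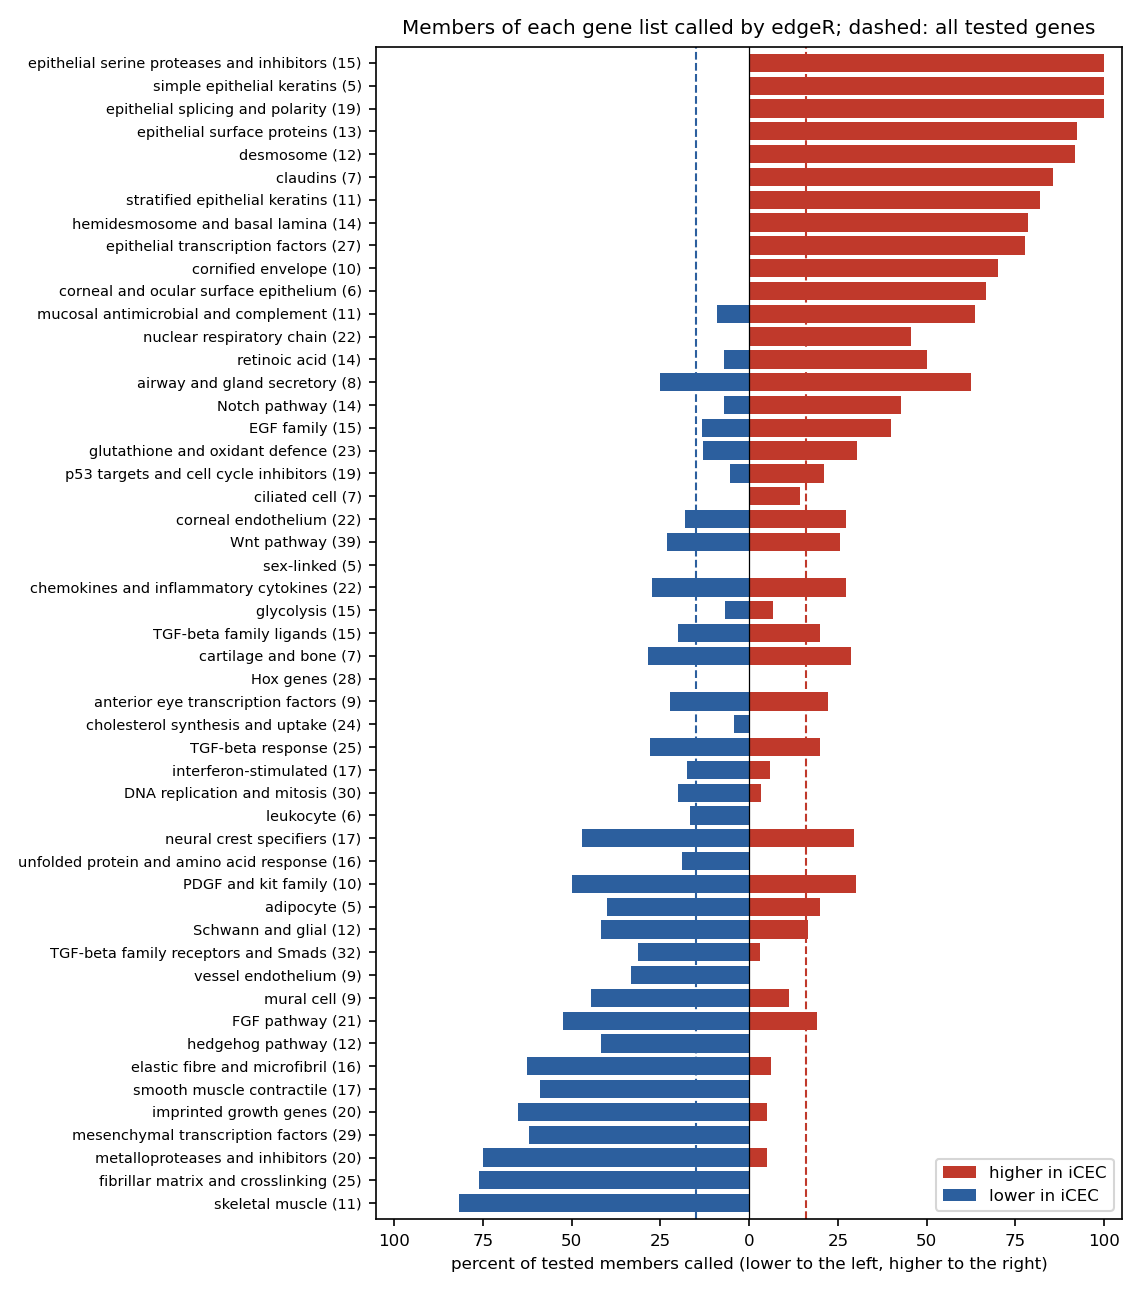
Percent of the tested members of each gene list called higher (red, to the right) and lower (blue, to the left) in iCEC by edgeR, for lists with 5 or more tested members (number in parentheses); dashed lines mark the share of all tested genes called in that direction, 16.1% and 15.1%. Most epithelial lists fill the top of the plot and mesenchymal and muscle lists the bottom, while Hox genes and sex-linked genes had no call. The ciliated cell list (14.3% higher) is not among the top.

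Transcription factors of epithelia were higher as a group. Of 27 tested members 21 rose and 0 fell, with a median log2 fold change of 6.97. Their summed level was 3366, 4793 and 2172 CPM in iCEC against 171, 169.6 and 132 in pNCC. Ehf, an Ets factor of mucosal and skin epithelium, was read at 639, 883 and 802 CPM in iCEC against 0.245, 0.116 and 0.0588 in pNCC, 5439-fold higher (log2 12.41, 13.04 without pNCC 1). Its relative Elf5 was at 0 in pNCC and at 14.6, 15.2 and 12.7 CPM in iCEC, at least 159-fold higher. Both were even across the iCEC libraries. Grhl2, a grainyhead factor that drives E-cadherin and claudin genes, stood at 70.2, 79.3 and 139 CPM in iCEC against 0.0920, 0.289 and 0.176 in pNCC, 506-fold higher. The homeobox factor Barx2 was at 100.9, 161 and 149 CPM in iCEC against 0.245, 0.289 and 0.0588 in pNCC, 682-fold higher, and Sox21 at 21.2, 12.2 and 14.8 CPM in iCEC against 0.0613, 0.0579 and 0.0588 in pNCC, 256-fold higher. Tfap2c, of surface ectoderm and trophoblast, was at 20.6, 29.6 and 41.5 CPM in iCEC against 0.123, 0.289 and 0.353 in pNCC (118-fold). Klf5, of basal and gut epithelium, was at 278, 279 and 84.4 CPM in iCEC against 3.34, 4.92 and 5.41 in pNCC (46.9-fold). None of these 4 overlapped between groups, nor did 51.9% of all tested genes. Pitx1, a homeobox factor of hindlimb and oral epithelium, was 152-fold higher but uneven, at 520.1, 632 and 50.1 CPM in iCEC. Factors of late epithelial differentiation were lower in iCEC 3 than in the other iCEC libraries. Grhl1 was read at 163, 179 and 45.8 CPM in iCEC against 0.184, 0.289 and 0 in pNCC (log2 9.65, 10.40 without pNCC 2 and 9.06 without pNCC 3). Grhl3, a grainyhead factor of the skin barrier, was at 90.7, 109 and 7.599 CPM in iCEC against 0, 0 and 0.118 in pNCC (log2 10.66, 14.32 without pNCC 3). Zfp750, a target of Trp63, was at 237, 308 and 55.9 CPM in iCEC against 0.0613, 0.0579 and 0.588 in pNCC (log2 9.70, 11.62 without pNCC 3). Elf3 was at 255, 398 and 14.9 CPM in iCEC against 0.0613, 0 and 0 in pNCC (log2 13.23, 12.51 without iCEC 2 and 16.01 without pNCC 1). All 4 were at or below 0.588 CPM in every pNCC library. The pluripotency and epithelial factor Klf4 (119.6, 252 and 95.4 CPM in iCEC against 113, 89.0 and 81.3 in pNCC, adjusted p = 0.213) did not pass.

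Factors of mesenchyme moved the other way. Of 29 tested members 18 fell and 0 rose, with a median log2 fold change of -4.35. Their sum was 175, 262 and 269 CPM in iCEC against 2057, 1869 and 1826 in pNCC. Alx4, a homeobox gene that patterns head and limb mesenchyme, was at 0 in every iCEC library and at 7.97, 4.05 and 6.59 CPM in pNCC, at least 79.5-fold lower. So were Ebf2, with 7.70, 4.02 and 5.62 CPM in pNCC (at least 74.0-fold), and Meox2, with 8.31, 4.80 and 2.15 CPM (at least 65.2-fold). Among the repressors of epithelial genes, Zeb1 fell to 4.14, 1.12 and 0.786 CPM from 112, 123 and 98.1 CPM, 54.5-fold lower (log2 -5.77, -6.86 without iCEC 1). Snai1 fell to 1.40, 0.666 and 0.0524 CPM from 51.9, 64.04 and 84.1 CPM, 92.8-fold lower (log2 -6.54, -7.55 without iCEC 1). Zeb2 was lower as well, 21.3, 20.8 and 1.05 CPM in iCEC against 159.9, 173 and 161 in pNCC (log2 -3.52 ± 1.00 SE, adjusted p = 0.0408), as was Twist1, a factor of crest and head mesenchyme, 6.34, 6.78 and 0.0524 CPM in iCEC against 134, 97.6 and 74.4 in pNCC (log2 -4.54 ± 1.31 SE, adjusted p = 0.0428). Both calls held without iCEC 3 and were lost without iCEC 1, iCEC 2 or any 1 pNCC library, with adjusted p from 0.0813 to 0.107 for Zeb2 and from 0.0855 to 0.119 for Twist1. Snai2, a relative of Snai1, did not pass and overlapped between groups (32.1, 38.9 and 86.3 CPM in iCEC against 40.0, 49.3 and 67.1 in pNCC, adjusted p = 0.990). Some members differed among iCEC libraries. Ebf3, which did not pass, was at 0, 0 and 21.0 CPM in iCEC against 32.9, 16.8 and 20.4 in pNCC, so that iCEC 3 lay at the pNCC level and the other iCEC libraries at 0. Without iCEC 3 its log2 fold change was -12.73 (adjusted p = 0.000635).

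**Figure D3:**
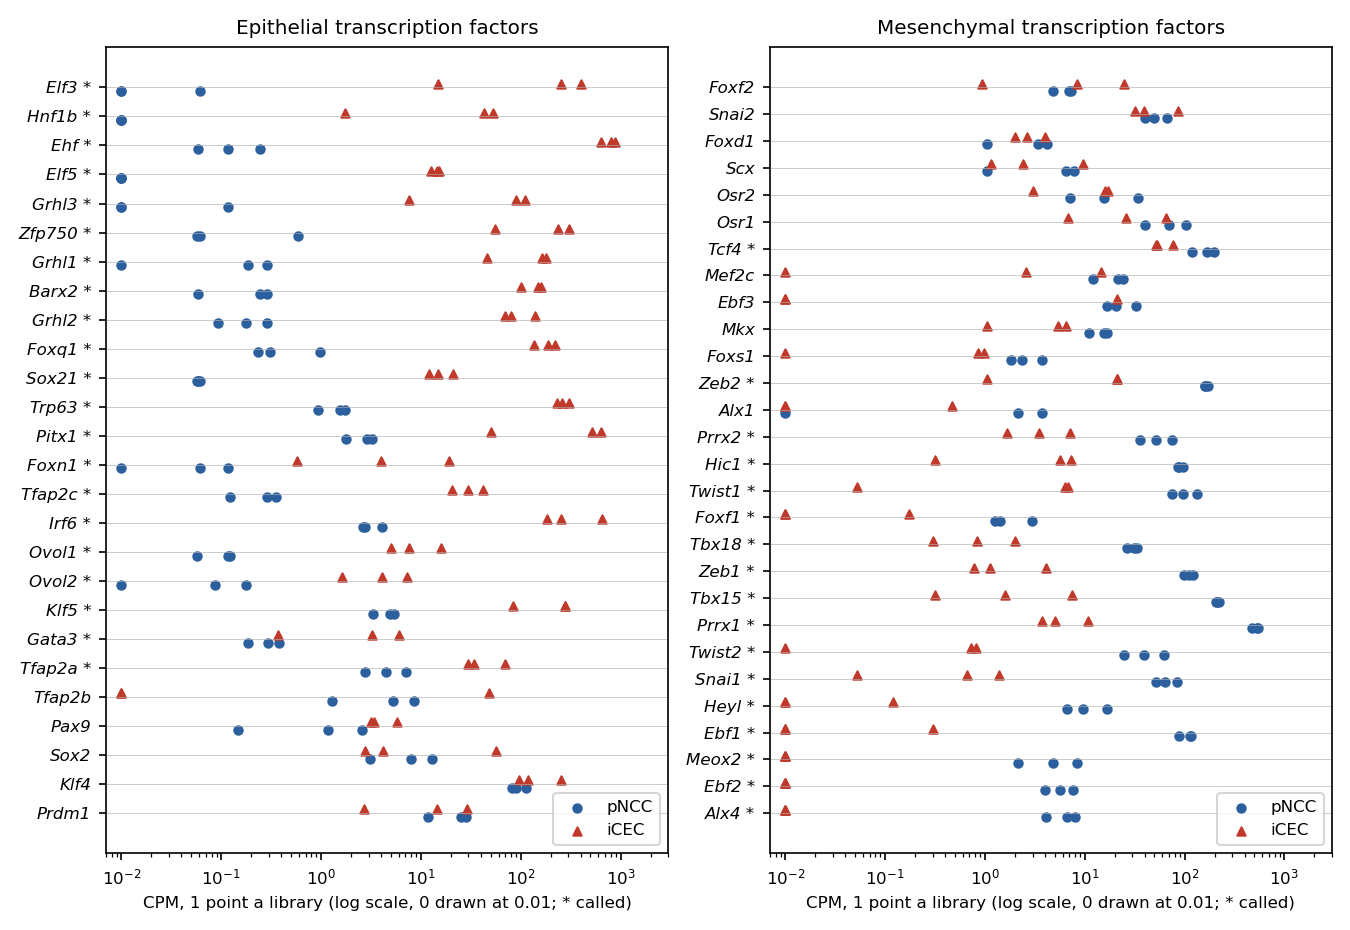
CPM of tested epithelial (left) and mesenchymal (right) transcription factors in each library on a log scale, with 0 drawn at 0.01; triangles are the 3 iCEC and circles the 3 pNCC libraries, genes are ordered by log2 fold change, and a star marks an adjusted p under 0.05. The groups are apart for most epithelial factors, from Elf3 to Klf5, while Snai2, Klf4 and Sox2 overlap.

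Genes that build the polarity, vesicle sorting and mRNA splicing of epithelia rose in every tested case, 19 of 19, with a median log2 fold change of 6.49. Esrp1, a splicing factor that switches exons to their epithelial form, was read at 175, 245 and 174 CPM in iCEC against 0.920, 0.521 and 0.941 in pNCC, 248-fold higher (log2 7.96 ± 0.36 SE, adjusted p = 0.000268). The apical polarity protein Crb3 stood at 24.5, 31.0 and 21.1 CPM in iCEC against 0.0920, 0.145 and 0.118 in pNCC, 209.7-fold higher. Ap1m2, the adaptor that sorts proteins to the basolateral membrane, was at 47.8, 39.7 and 50.7 CPM in iCEC against 0.184, 0.347 and 0.441 in pNCC (140.3-fold). Lsr, which organises tricellular junctions, was at 53.9, 71.5 and 38.3 CPM in iCEC against 0.705, 0.579 and 0.529 in pNCC (89.8-fold). Each of the 4 varied by under 2-fold among the iCEC libraries and lay apart from pNCC, as did 51.9% of all tested genes. The hexamer CAGGTG, an E-box that Zeb and Snail proteins can bind, was searched on both strands in the 250 bases before each gene's start (RefSeq sequences of GRCm38.p6), counting a gene once if any of its starts had it. It lay in 19.4% of all 27025 genes with such a sequence, in 18.5% of the tested genes, in 26.5% of those higher and in 15.9% of those lower in iCEC. Of the 13 genes of the splicing and polarity list with a sequence, 10 (76.9%) held it, against 2 of 17 mesenchymal factors (11.8%) and 0 of 15 fibrillar matrix genes. Other lists that mostly fell ranged widely too. Skeletal muscle had 4 of 12 (33.3%), metalloproteases and inhibitors 4 of 15 (26.7%) and imprinted genes 4 of 16 (25%). Elastic fibre genes had 2 of 12 (16.7%) and contractile genes 1 of 14 (7.14%). Other epithelial lists ranged widely, with 4 of 5 simple keratins (80%), 3 of 12 claudins (25%), 3 of 16 cornified envelope genes (18.8%), 1 of 9 ciliated cell genes (11.1%) and 0 of 2 desmosome genes. For 3 other motifs, searched in the same way, the splicing and polarity list held AACCNGTT, which Grainyhead-like factors can bind, in 2 of 13 genes (15.4%, against 1.83% of the tested genes). It held GGAATG, which Tead factors can bind, in 2 of 13 (15.4% against 13.2%) and GCCNNNGGC, which AP-2 factors can bind, in 6 of 13 (46.2% against 23.5%). A match is a string of letters and shows no binding. The 250 bases before the start of 3 of these genes are printed 5′ to 3′ on the gene's strand, because each holds 3 or 4 copies, which are in capitals (CAGGTG, or CACCTG where the other strand reads CAGGTG).
Ap1m2 (chr9:21312334-21312583, minus strand): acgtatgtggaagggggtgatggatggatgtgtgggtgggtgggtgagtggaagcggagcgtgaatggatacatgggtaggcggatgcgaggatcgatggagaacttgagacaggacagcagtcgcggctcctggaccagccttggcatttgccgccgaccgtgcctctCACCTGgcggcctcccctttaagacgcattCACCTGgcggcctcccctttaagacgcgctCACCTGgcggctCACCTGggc
Lsr (chr7:30973470-30973719, minus strand): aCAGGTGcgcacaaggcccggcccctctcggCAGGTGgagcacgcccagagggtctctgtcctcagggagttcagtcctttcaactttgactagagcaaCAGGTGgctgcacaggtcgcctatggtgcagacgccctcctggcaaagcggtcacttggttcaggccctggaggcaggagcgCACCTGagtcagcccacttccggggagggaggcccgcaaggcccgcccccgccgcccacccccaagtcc
Crb3 (chr17:57061951-57062200, plus strand): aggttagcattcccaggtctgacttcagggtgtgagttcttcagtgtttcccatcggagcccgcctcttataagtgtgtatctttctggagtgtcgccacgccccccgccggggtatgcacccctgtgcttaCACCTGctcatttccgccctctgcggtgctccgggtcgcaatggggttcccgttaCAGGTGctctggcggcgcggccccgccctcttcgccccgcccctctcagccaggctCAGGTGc
In Ap1m2 all 4 copies read CACCTG and lie within the last 81 bases before the start. In Lsr they are spread from 249 to 64 bases before the RefSeq start, and in Crb3 the nearest copy ends 2 bases before it. The bases just after the start were found near the beginning of a GENCODE transcript for Ap1m2 and Crb3 and were not found there for Lsr, whose start here rests on RefSeq alone.

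Keratins rose in both classes. Of the simple keratins, which fill single-layered epithelia, 5 of 5 tested rose (median 8.66 on the log2 scale), and of the stratified keratins 9 of 11 (median 7.19). Krt14, the partner of Krt5 in basal cells, was read at 8650.3, 6272 and 8183 CPM in iCEC against 42.5, 50.6 and 73.4 in pNCC, 139-fold higher (log2 7.12 ± 0.37 SE, adjusted p = 0.000308). Krt17 stood at 973, 1578 and 2078 CPM in iCEC against 21.7, 23.6 and 27.8 in pNCC (63.3-fold). Krt19, of simple epithelia, was at 1572, 2061 and 129 CPM in iCEC against 1.29, 3.88 and 3.38 in pNCC (439-fold). The simple pair was highest in iCEC 3. Krt8 was read at 657, 740.1 and 2393 CPM in iCEC against 3.83, 8.10 and 1.91 in pNCC (log2 8.10, 7.22 without iCEC 3 and 8.76 without pNCC 2). Krt18 was read at 364, 463 and 1229 CPM in iCEC against 2.94, 3.93 and 1.06 in pNCC (log2 8.01, 7.26 without iCEC 3). Krt13 and Krt4, keratins of wet stratified surfaces, were lowest there. Krt13 was at 2516, 2679.9 and 0.524 CPM in iCEC and 0 in pNCC (adjusted p = 0.0497), a call lost without any 1 library except iCEC 3 (adjusted p from 0.109 to 0.113). Krt4 was at 784, 36.7 and 0.341 CPM and did not pass. Krt6a, at 2077, 2624 and 1202 CPM in iCEC, and Krt6b, at 1963, 2282 and 81.4 CPM, are nearly identical in sequence, so the division of reads between them is uncertain. The corneal keratin Krt12 was not tested, at 0, 0 and 0.0262 CPM in iCEC against 0, 0 and 0 in pNCC.

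Junctions followed the keratins. Of the desmosome genes 11 of 12 rose (median 7.77), of the hemidesmosome and basal lamina genes 11 of 14 (4.11). Of 16 claudins 7 were tested and 6 rose (8.15, or 7.99 with genes at 0 in a group set at their bound). Of the epithelial surface proteins 12 of 13 tested rose (6.15). The desmosomal cadherin Dsg2 was read at 154, 222 and 228 CPM in iCEC against 0.583, 0.521 and 0.470 in pNCC, 382-fold higher (log2 8.58 ± 0.28 SE, adjusted p = 0.000126). Dsg3, the desmoglein of stratified layers, was at 739, 909 and 684 CPM in iCEC against 1.90, 1.97 and 4.06 in pNCC (294-fold). Pkp1, a plakophilin of the desmosomal plaque, stood at 866, 1011 and 592 CPM in iCEC against 5.61, 4.11 and 7.23 in pNCC (146-fold). Col17a1, the transmembrane collagen of hemidesmosomes, rose to 1430.1, 1063 and 1387 CPM from 4.78, 8.19 and 14.0 CPM (144-fold). Its integrin partner Itgb4 rose to 676, 667 and 489.7 from 11.01, 15.2 and 15.9 CPM (43.4-fold), the laminin Lama5 by 82.2-fold and the laminin Lama3 by 22.3-fold. Of these, the 5 whose values are given varied by under 2-fold among the iCEC libraries. The tight junction claudins were less even. Cldn4 was read at 426, 1377 and 312 CPM in iCEC against 3.99, 4.17 and 5.998 in pNCC (log2 7.22, 6.29 without iCEC 2). Cldn7 was read at 42.2, 128 and 96.3 CPM in iCEC against 0.0920, 0.347 and 0.0882 in pNCC (log2 8.94, 9.87 without pNCC 2). P-cadherin, Cdh3, rose to 204, 272 and 175 CPM from 12.9, 13.48 and 23.2 CPM (13.1-fold). The membrane linker ezrin, Ezr, was at 469, 529 and 404 CPM in iCEC against 28.6, 29.1 and 23.2 in pNCC, 17.3-fold higher. N-cadherin, Cdh2, fell to 0.302, 0.121 and 0.419 CPM from 143, 174 and 149 CPM, 539-fold lower (log2 -9.07 ± 0.47 SE, adjusted p = 0.000308).

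Many products that mucosae secrete were higher in iCEC than in pNCC, and several were lower in iCEC 3 than in iCEC 1 and 2. All 15 tested serine proteases of epithelia and their inhibitors, of 18 listed, rose (median 8.43). The elastase inhibitor Slpi was at 188, 171 and 194 CPM in iCEC against 5.37, 8.21 and 7.76 in pNCC (25.9-fold higher), and Serpinb5, a serpin of basal epithelium, at 230.2, 147 and 239 CPM in iCEC against 1.23, 2.26 and 1.65 in pNCC (119.8-fold). Spint2, which inhibits matriptase, was at 855, 847 and 359.7 CPM in iCEC against 1.66, 1.42 and 2.88 in pNCC (346-fold). Lactoferrin, Ltf, an iron-binding protein of tears and milk, took the largest mean share of counts of any gene in iCEC, with 18382, 41789.9 and 457 CPM against 0 in pNCC. Its difference of at least 227081-fold was carried mostly by iCEC 1 and 2, and its fitted log2 fold change of 22.49 was 21.42 without iCEC 2. The list of airway and gland products had 5 of 8 tested (22 listed) higher and 2 lower. Its sums were 19937, 45045 and 994 CPM in iCEC against 51.0, 37.7 and 16.5 in pNCC. Ltf belongs to this list and made up most of the sums of iCEC 1 and 2. Their gap to iCEC 3 thus rests mostly on that gene. Pigr, which carries antibodies across epithelia, was read at 279, 489.6 and 14.1 CPM in iCEC against 0, 0.0579 and 0.0588 in pNCC (log2 12.57, 11.75 without iCEC 2). Cyp2f2, an enzyme of airway club cells, was highest in iCEC 3, at 183, 209 and 314 CPM in iCEC against 4.23, 1.30 and 0.911 in pNCC (log2 6.78, 7.71 without pNCC 1). Lyz2, the lysozyme of macrophages and alveolar cells, was at 0 in iCEC and 17.8, 23.3 and 12.9 CPM in pNCC. Among antimicrobial and complement genes 7 of 11 rose and 1 fell (12 rose without iCEC 3, when more members passed the filter). Nos2, the inducible nitric oxide synthase, was at 6.47, 14.0 and 12.2 CPM in iCEC against 0.184, 0.231 and 0.176 in pNCC (54.3-fold). Of 17 envelope protein genes of the cornified layer 10 were tested and 7 were higher. The number higher was 12 without iCEC 3 and 4 without pNCC 1, 2 or 3. Sums were 3666, 3709 and 199 CPM in iCEC against 9.26, 7.81 and 15.2 in pNCC. Of the list for corneal and ocular surface epithelium 4 of 6 tested rose, 9 without iCEC 3 and 2 without pNCC 1 or pNCC 2. Sfn, an epithelial 14-3-3 protein, was at 683, 974 and 118 CPM in iCEC against 11.6, 15.97 and 20.4 in pNCC (37.0-fold).

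Transcripts of the collagen matrix were mostly lower in iCEC, and matrix protein was not measured here. Of 25 tested genes of fibrillar matrix and its crosslinking 19 fell and 0 rose, with a median log2 fold change of -6.50. All 25 lay apart between the groups, as did 51.9% of all tested genes. Their summed level was 895, 1086 and 4574 CPM in iCEC against 88926, 67642 and 72526 in pNCC. Col1a1, a chain of collagen I with the largest mean share of counts of any gene in pNCC, was read at 12.3, 14.5 and 0.105 CPM in iCEC against 16677, 13083 and 12909.5 in pNCC, 1583-fold lower (log2 -10.63 ± 1.83 SE, adjusted p = 0.00820). Biglycan, Bgn, a proteoglycan that binds collagen, fell to 0.905, 0.0606 and 0.105 CPM from 6467, 5265 and 5816 CPM (log2 -13.93, -16.03 without iCEC 1). The crosslinking oxidase Lox stood at 22.6, 7.39 and 26.1 CPM in iCEC against 3342, 2582 and 3395 in pNCC (166-fold lower). Its relative Loxl2 was at 4.29, 7.66 and 3.01 CPM in iCEC against 416, 469 and 467 in pNCC (90.4-fold). Lumican, Lum, a proteoglycan of corneal stroma and other connective tissue, fell to 0.0431, 0.121 and 0.105 CPM from 382, 159.8 and 83.0 CPM (log2 -11.18, -10.41 without pNCC 1). The collagen-binding protein Sparc was at 145, 199 and 76.8 CPM in iCEC against 5116, 3937 and 3983 in pNCC (31.0-fold lower). Some matrix genes were higher in iCEC 3 than in the other iCEC libraries. Periostin, Postn, was read at 50.7, 77.1 and 1423 CPM in iCEC against 5446, 3935 and 6891 in pNCC and did not pass (log2 -3.39, adjusted p = 0.106), except without iCEC 3 (log2 -6.44, adjusted p = 0.000294). Fibronectin, Fn1, at 318, 254 and 1694 CPM in iCEC against 6652, 5053 and 4225 in pNCC, passed with all libraries (log2 -2.81 ± 0.81 SE, adjusted p = 0.0421) and without iCEC 3 (log2 -4.24). The call was lost without any other 1 library (adjusted p from 0.0774 to 0.118).

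Elastic fibre genes and matrix protease genes were mostly lower as well, where 15.1% of all tested genes were lower and 16.1% higher. Of 16 elastic fibre and microfibril genes 10 fell and 1 rose (median -6.05), and of 20 metalloproteases and their inhibitors 15 fell and 1 rose (-3.76). The microfibril glycoprotein Mfap2 went to 0.108, 0.0909 and 0.131 CPM from 104, 68.8 and 63.3 CPM, 691-fold lower (log2 -9.43 ± 0.36 SE, adjusted p = 0.000194). Emilin1, which sits between elastin and microfibrils, went to 0.560, 0.485 and 0.210 from 314, 278 and 296 CPM (699-fold). Both were below 1 CPM in every iCEC library. Adamts2, the enzyme that trims procollagen, stood at 4.14, 6.18 and 3.46 CPM in iCEC against 479, 409.96 and 462 in pNCC (98.1-fold lower). Mmp23 was at 0.560, 0.787 and 0.760 CPM in iCEC against 52.5, 39.0 and 65.8 in pNCC (74.5-fold), and Mmp11, a stromelysin, at 9.96, 12.2 and 16.1 CPM in iCEC against 160.1, 95.5 and 146 in pNCC (10.5-fold). Tenascin C, Tnc, a glycoprotein of embryonic mesenchyme outside these lists, was at 491, 714 and 834 CPM in iCEC against 3725, 5057 and 6951 in pNCC (7.72-fold lower). Of 17 contractile genes 10 fell and 0 rose (median -2.84), 6 without pNCC 2 or pNCC 3. Smooth muscle actin, Acta2, was read at 125, 166 and 334 CPM in iCEC against 1236, 2347 and 2667 in pNCC (10.0-fold lower). The light chain Myl9 was at 19.6, 17.5 and 34.9 CPM in iCEC against 117, 191 and 208 in pNCC (7.18-fold). Tagln, another gene of this programme, was read at 0.453, 0.424 and 0.262 CPM in iCEC against 2.18, 3.21 and 4.38 in pNCC (8.51-fold lower). Vimentin, Vim, the intermediate filament of mesenchyme, fell to 98.9, 71.3 and 21.1 CPM from 3110.1, 3927 and 3849 CPM, 56.9-fold lower (log2 -5.83 ± 0.65 SE, adjusted p = 0.00227).

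SB431542 acts on the receptor kinases for TGF-β, activin and nodal, encoded by Tgfbr1, Acvr1b and Acvr1c. These pass the signal to Smad2 and Smad3. The inhibitor spares the BMP receptor kinases, which use Smad1, Smad5 and Smad9. Of 15 tested ligands of the whole family 3 rose, 3 fell and 9 did not pass (median -0.19), with 1 lower without pNCC 2. That was 20% each way, near the 16.1% higher and 15.1% lower of all tested genes. Tgfb2 rose to 68.5, 65.9 and 145 CPM from 10.6, 14.3 and 11.4 CPM, 7.67-fold (log2 2.94 ± 0.38 SE, adjusted p = 0.00326). Tgfb1 did not pass (76.0, 162 and 36.6 CPM in iCEC against 49.1, 62.0 and 66.6 in pNCC, adjusted p = 0.400). Nor did Tgfb3 (16.7, 25.3 and 91.2 CPM in iCEC against 172, 139 and 91.3 in pNCC, adjusted p = 0.122), except without iCEC 3 (log2 -2.70, adjusted p = 0.00239). Bmp7, a BMP of epithelia, was at 28.6, 31.8 and 79.8 CPM in iCEC against 0.644, 1.04 and 0.647 in pNCC, 59.8-fold higher (log2 5.90, 5.25 without iCEC 3). Gdf15, a stress-induced hormone, rose 16.6-fold (26.3, 26.2 and 49.2 CPM in iCEC against 2.02, 2.37 and 1.71 in pNCC). Gdf10 fell from 58.3, 40.4 and 49.4 CPM to 0, 0 and 0.105 CPM (log2 -10.35, -13.81 without iCEC 3 and -9.71 without iCEC 1). The activin subunit Inhba did not pass (57.6, 139 and 181 CPM in iCEC against 111, 225 and 228 in pNCC, adjusted p = 0.403), and neither did Inhbb (188, 95.3 and 799 CPM in iCEC against 59.8, 87.5 and 163 in pNCC, adjusted p = 0.156). Both overlapped between the groups.

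Receptors and signal carriers fell more often than they rose, 10 against 1 of 32 tested, with a median of -0.63, and 6 fell without pNCC 1, 2 or 3. With all libraries 31.2% were lower and 3.12% higher, against 15.1% and 16.1% of all tested genes. The inhibitor's targets went apart. Tgfbr1 was lower, 25.1, 29.6 and 33.8 CPM in iCEC against 83.7, 86.6 and 81.8 in pNCC (2.85-fold, log2 -1.51 ± 0.17 SE, adjusted p = 0.00208). Acvr1b was higher, 138, 178 and 112 CPM in iCEC against 51.4, 47.5 and 56.7 in pNCC (2.75-fold, log2 1.46 ± 0.21 SE, adjusted p = 0.00472). Acvr1c was not tested, at no more than 0.121 CPM in any library. The type II receptor Tgfbr2 did not pass (367, 273 and 116 CPM in iCEC against 492, 337 and 413 in pNCC, adjusted p = 0.250). The BMP type II receptor Bmpr2 was 1.86-fold lower (113, 119 and 140.4 CPM in iCEC against 244, 219.95 and 228 in pNCC). Co-receptors were strongly lower. Betaglycan, Tgfbr3, which presents TGF-β2, was read at 9.91, 3.85 and 27.4 CPM in iCEC against 345, 273 and 424 in pNCC (log2 -4.66, -5.67 without iCEC 3). Endoglin, Eng, was at 3.43, 1.51 and 0.917 CPM in iCEC against 84.2, 92.5 and 64.3 in pNCC (log2 -5.35, -6.04 without iCEC 1). The BMP receptor Bmpr1b fell to 0.0431, 0.0606 and 0 CPM from 8.40, 13.9 and 15.9 CPM (339-fold). The Smads of the inhibited branch did not pass. Smad2 was read at 57.1, 65.9 and 90.4 CPM in iCEC against 73.4, 66.3 and 72.5 in pNCC (log2 0.01 ± 0.20 SE), and Smad3 at 73.7, 76.0 and 72.4 CPM in iCEC against 62.2, 50.6 and 49.9 in pNCC (log2 0.45 ± 0.15 SE). Their partner Smad4 was at 108, 118 and 104.95 CPM in iCEC against 119, 116 and 119.5 in pNCC (log2 -0.10 ± 0.13 SE). The repressor Ski was 2.61-fold lower (130.00, 104 and 110.4 CPM in iCEC against 309, 296 and 292 in pNCC). The feedback inhibitor Smad7 did not pass (16.04, 24.4 and 16.6 CPM in iCEC against 21.4, 31.5 and 42.6 in pNCC, adjusted p = 0.127).

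Genes known to respond to TGF-β went both ways, with 7 of 25 lower, 5 higher and 13 not passing (median -0.74). Shares were 28% lower and 20% higher, against 15.1% and 16.1% of all tested genes. Without pNCC 1, 2 or 3 the counts were 4 lower and 3 higher, and without iCEC 1 they were 4 lower. Of the 7 that fell, Acta2, Tagln, Col1a1 and Fn1 are described with the matrix and contractile genes. Col3a1, the chain of collagen III, was at 14.5, 48.1 and 0.0524 CPM in iCEC against 11091, 5319.98 and 2179 in pNCC. Its call held without iCEC 3 and was lost without any other 1 library (adjusted p from 0.0512 to 0.0957). Ccn1, a matrix signalling protein, was at 109, 314 and 111 CPM in iCEC against 434, 623 and 977 in pNCC. Its call held without iCEC 2 and was lost without any other (adjusted p from 0.0519 without iCEC 3 to 0.122 without pNCC 3). Itgb6, an integrin of epithelia that activates latent TGF-β, was higher, 46.0, 46.4 and 20.8 CPM in iCEC against 0.552, 0.810 and 1.12 in pNCC (45.4-fold). So was Id2, an inhibitor of differentiation known as a BMP target (89.9, 258 and 222 CPM in iCEC against 22.3, 15.6 and 16.9 in pNCC, 10.4-fold). Ankrd1, a target shared with the Hippo pathway, was also higher (30.9, 66.0 and 59.9 CPM in iCEC against 3.25, 8.33 and 7.79 in pNCC, 8.09-fold). Several standard targets did not pass. Pmepa1, a feedback gene, was read at 34.3, 71.9 and 166 CPM in iCEC against 228, 259 and 301 in pNCC (adjusted p = 0.0829). Ccn2, connective tissue growth factor, was at 36.7, 116 and 954 CPM in iCEC against 104.8, 229.8 and 346 in pNCC (adjusted p = 0.681), where iCEC 3 exceeded every pNCC library. Skil (53.8, 114 and 57.7 CPM in iCEC against 80.3, 86.3 and 94.9 in pNCC) overlapped between the groups. Without iCEC 3 the log2 fold change of Pmepa1 was -2.34 (adjusted p = 0.00428).

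**Figure D4:**
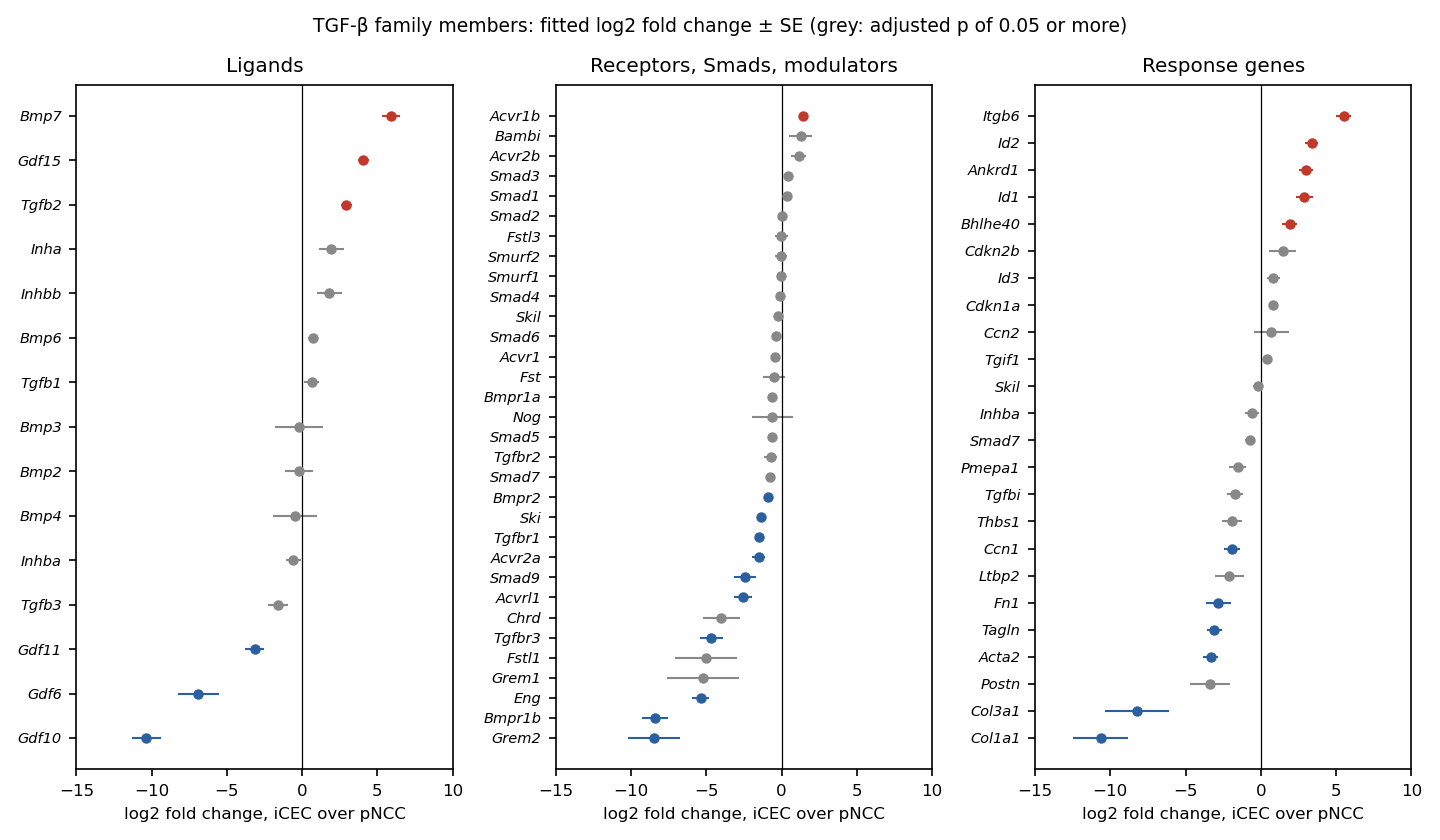
Fitted log2 fold change of iCEC over pNCC ± SE (horizontal) for tested TGF-β family ligands, receptors, Smads or modulators, and response genes; red and blue mark higher and lower at an adjusted p under 0.05, grey the rest. Smad2, Smad3 and Smad4 lie near 0, Tgfbr1 and Acvr1b on opposite sides, and response genes run from Itgb6 at 5.51 to Col1a1 at -10.63.

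Other signalling families also had members called, where 16.1% of all tested genes were higher and 15.1% lower. Of 39 Wnt pathway genes 10 rose and 9 fell (5 or 6 rose without a pNCC library). The epithelial ligand Wnt7b was at 188, 195 and 129 CPM in iCEC against 0.552, 1.45 and 1.35 in pNCC (152-fold higher). The receptor Fzd2 was at 21.3, 14.3 and 27.5 CPM in iCEC against 289, 254 and 277 in pNCC (13.005-fold lower) and the secreted modulator Dkk3 at 23.6, 27.1 and 23.7 CPM in iCEC against 284, 238 and 236 in pNCC (10.2-fold lower). Of 21 FGF pathway genes 11 fell and 4 rose, with 5 or 6 lower without a pNCC library. Fgfr2, whose epithelial form receives mesenchymal FGFs, rose to 76.2, 84.0 and 81.1 CPM from 18.4, 19.7 and 29.4 CPM (3.58-fold), while the ligand Fgf2 fell to 3.15, 2.27 and 1.76 from 14.7, 12.6 and 26.3 CPM (7.45-fold). Several ligands of the EGF receptor rose. Tgfa was read at 62.5, 74.0 and 51.9 CPM in iCEC against 1.59, 1.56 and 1.44 in pNCC (40.9-fold, log2 5.35 ± 0.23 SE, adjusted p = 0.000241). Amphiregulin, Areg, was at 19.6, 24.8 and 28.5 CPM in iCEC against 0.0613, 0.0868 and 0.176 in pNCC (217-fold) and epigen, Epgn, at 9.94, 7.12 and 3.77 CPM in iCEC against 0.0613, 0.0868 and 0.176 in pNCC (62.1-fold). In all 6 of 15 members of the family rose. Lrig1, which limits EGF receptors and marks epithelial stem cells, fell (25.9, 21.3 and 28.9 CPM in iCEC against 161, 172 and 155 in pNCC, 6.41-fold), 1 of 2 lower. In the Notch pathway 6 of 14 rose and 1 fell, led by the ligand Jag2 (202, 156 and 184 CPM in iCEC against 0.675, 0.926 and 1.35 in pNCC, 183-fold higher). Lfng, which adds sugars to Notch, was at 19.6, 36.5 and 40.6 CPM in iCEC against 1.29, 2.37 and 2.44 in pNCC (15.8-fold), and the receptor Notch3 at 179.9, 115 and 156 CPM in iCEC against 25.5, 22.7 and 12.8 in pNCC (7.39-fold).

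Both PDGF receptors fell. Pdgfra, the defining receptor of fibroblasts, fell to 1.42, 0.485 and 0.341 CPM from 871, 689.7 and 812 CPM (log2 -10.02, -10.90 without iCEC 1). Pdgfrb, of mural and mesenchymal cells, fell to 2.22, 4.69 and 0.0524 from 698, 807 and 868 CPM (log2 -8.42, -9.42 without iCEC 2). In their list of 10 genes 5 fell and 3 rose, where 15.1% of all tested genes were lower and 16.1% higher. Without any 1 library other than iCEC 3, 3 of that list fell, and without pNCC 1 only 1 rose. Kit, the receptor for stem cell factor, was higher and uneven, 12.97, 156 and 213 CPM in iCEC against 0.429, 0.752 and 0.706 in pNCC (log2 7.65, 7.01 without iCEC 3). Of 12 hedgehog genes 5 fell and 0 rose (8 fell without iCEC 3). The co-receptor Gas1 was at 33.3, 63.9 and 54.3 CPM in iCEC against 339, 258 and 319.7 in pNCC (6.05-fold lower) and the factor Gli3 at 17.9, 18.3 and 20.6 CPM in iCEC against 73.3, 76.0 and 70.1 in pNCC (3.86-fold). Hhip, which binds the ligands, was at 0 in iCEC and 1.78, 3.79 and 3.09 CPM in pNCC. Of 14 retinoic acid genes 7 rose and 1 fell, with 4 higher without pNCC 1. Rdh10, which makes retinal, was at 143, 292 and 348 CPM in iCEC against 31.5, 23.7 and 23.7 in pNCC (9.91-fold higher). Rarb, a receptor and target of retinoic acid, was at 4.66, 11.2 and 4.98 CPM in iCEC against 0.276, 0.289 and 0.0588 in pNCC (32.9-fold). Crabp1, which binds retinoic acid in crest cells, went from 456, 564 and 774 CPM to 0.647, 0 and 0 CPM, with its iCEC counts all in iCEC 1 (log2 -11.31, -17.33 without it).

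Set against their label, the induced libraries held some corneal endothelium markers and lacked others. Of 22 tested markers 6 rose, 4 fell and 12 did not pass, with a median of 0.05, close to that of all genes. That was 27.3% higher and 18.2% lower, against 16.1% and 15.1% of all tested genes. Atp1b1, the beta chain of the sodium pump that drives the endothelial fluid flow, was at 104.6, 71.3 and 196 CPM in iCEC against 7.02, 7.69 and 7.03 in pNCC (17.1-fold higher, log2 4.10 ± 0.42 SE, adjusted p = 0.00176). It is also made by other transporting epithelia. Foxc1, a forkhead factor of the anterior eye and its crest cells, rose to 83.9, 221 and 251 CPM from 11.3, 7.98 and 3.18 CPM (24.7-fold). The junctional adaptor Tjp1 was higher (453, 419 and 193 CPM in iCEC against 132, 140.5 and 118 in pNCC, log2 1.45 ± 0.34 SE, adjusted p = 0.0219). This call held without iCEC 3 and was lost without any other 1 library (adjusted p from 0.0586 to 0.0939). The bicarbonate cotransporter Slc4a4, on which the pump function depends, did not pass (13.4, 5.39 and 50.6 CPM in iCEC against 20.8, 12.3 and 29.3 in pNCC, adjusted p = 0.904). Among the markers that fell, Col8a2 of Descemet's membrane was at 0, 0.121 and 0.105 CPM in iCEC against 18.2, 4.86 and 9.82 in pNCC (log2 -7.18, -6.56 without iCEC 1). The water channel Aqp1 was at 0.647, 0.121 and 0.157 CPM in iCEC against 144, 123 and 45.1 in pNCC (log2 -8.33, -9.50 without iCEC 1). Together with Cdh2, described with the junctions, these were 3 of the 4 markers that fell. All 3 were at or below 0.647 CPM in every iCEC library. Of 9 tested anterior eye factors 2 rose and 2 fell (6 fell without iCEC 3 and 4 without pNCC 3). Eya2, a cofactor of homeobox proteins, was even in iCEC and 514-fold higher (158, 172 and 178 CPM in iCEC against 0.429, 0.434 and 0.118 in pNCC). Maf, a factor of lens and eye, was 3.47-fold lower (16.4, 28.5 and 25.8 CPM in iCEC against 68.6, 58.9 and 118 in pNCC). Among the iCEC libraries Lmx1b and Tfap2b were read in iCEC 3 alone. Lmx1b was at 0, 0 and 2.52 CPM in iCEC against 1.17, 0.463 and 1.65 in pNCC (log2 -0.38, -8.32 without iCEC 3). Tfap2b was at 0, 0 and 48.2 CPM in iCEC against 5.28, 8.56 and 1.29 in pNCC (log2 1.67, -10.52 without iCEC 3). Neither passed with all libraries. Pax6, the eye field factor, was below 1 CPM in every library and was not tested.

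Genes that specify the neural crest went both ways. Of 17 tested 8 fell and 5 rose (median -0.22), against 4 or 5 and 3 without a pNCC library, and 3 rose without iCEC 1. With all libraries that was 47.1% lower and 29.4% higher, against 15.1% and 16.1% of all tested genes. Foxd3, which keeps crest cells multipotent, was at 0 in every iCEC library and at 18.2, 30.6 and 8.70 CPM in pNCC, at least 246-fold lower. Sox10, the factor of crest and glia, fell from 37.3, 51.4 and 17.4 CPM to 0, 0.0606 and 0 CPM, with all its iCEC counts in iCEC 2. The difference was 2082-fold (ratio of summed counts, 95% counting interval 576 to 17196), with a fitted log2 value of -10.72 (-13.36 without iCEC 2 and -10.10 without iCEC 1). Sox9, active in crest, cartilage and epithelial stem cells, rose to 162, 317 and 489 CPM from 41.3, 31.9 and 36.3 CPM (8.84-fold). Tfap2a, of crest and surface ectoderm, rose to 30.0, 69.8 and 34.1 from 4.51, 7.17 and 2.73 CPM (9.28-fold). Pax3 overlapped (11.3, 10.7 and 0 CPM in iCEC against 12.1, 10.4 and 3.06 in pNCC).

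Markers of other cell types were read in both groups. Over all tested genes 16.1% were called higher and 15.1% lower. Skeletal muscle genes were present in pNCC and fell in iCEC, 9 of 11 tested (5 without pNCC 1 or pNCC 2), with a median of -6.80 or -6.00 with genes at 0 set at their bound. Their sums were 7.50, 5.996 and 2.46 CPM in iCEC against 125, 136 and 92.5 in pNCC. The embryonic myosin Myh3 was at 0 in iCEC and 22.3, 18.6 and 5.00 CPM in pNCC, and the perinatal myosin Myh8 at 0 and 13.4, 8.91 and 2.73 CPM. Skeletal actin, Acta1, was at 0.603, 0.303 and 0.314 CPM in iCEC against 25.9, 41.2 and 71.3 in pNCC (111-fold lower). Schwann and glial genes had 5 of 12 lower and 2 higher (3 lower without pNCC 1 or pNCC 2). The higher ones were Mal (609.8, 1209 and 178 CPM in iCEC against 0.797, 0.231 and 0.588 in pNCC, log2 10.26, 9.51 without iCEC 2) and Mbp (58.8, 86.4 and 44.5 CPM in iCEC against 9.32, 7.29 and 6.06 in pNCC, 8.36-fold). Both are also made outside glia. Of pigment cell genes only Kit passed, of 4 tested, and the pigment enzyme Dct was read at 0.0431, 0 and 0 CPM in iCEC against 0, 0 and 0 in pNCC. Leukocyte genes had 1 of 6 lower (16.7%), near the share of all tested genes, with 4 lower without iCEC 2 and 3 higher without iCEC 3. Their sums were 39.4, 149 and 16.2 CPM in iCEC against 14.9, 21.8 and 14.5 in pNCC. Vessel genes had 3 of 9 lower (7 without iCEC 3 and 1 without pNCC 1 or pNCC 2), with sums of 8.08, 57.2 and 26.8 CPM in iCEC against 44.1, 46.1 and 67.8 in pNCC. Mural cell genes had 4 of 9 lower (2 without pNCC 2) and 1 higher (2 without iCEC 2 or iCEC 3), and fat cell genes 2 of 5 lower and 1 higher. Cartilage and bone genes had 2 of 7 each way, 0 each way without pNCC 1 or pNCC 2, and 1 higher and 0 lower without pNCC 3. Without iCEC 1 they had 1 each way, and without iCEC 2 1 was lower. Lens genes had 2 of 4 lower (1 without iCEC 1 or any 1 pNCC library) and neuron genes 1 of 2 lower (2 without iCEC 1 or iCEC 2). Sums of ciliated cell genes were 699, 603 and 609 CPM in iCEC against 202, 286 and 274 in pNCC. The single ciliated cell gene that passed, Tubb4b (2.60-fold higher), is a tubulin of many cell types. Whether cells of other types in the cultures take part in any of these differences was not tested.

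Imprinted genes of fetal growth formed a further group that fell, where 15.1% of all tested genes were lower and 16.1% higher. Of 20 such genes 13 (65%) were lower and 1 (5%) higher, with a median of -4.93. These genes are expressed from 1 parental copy and are high in embryonic mesenchyme. Their sums were 884, 1029.7 and 873 CPM in iCEC against 9396, 6782 and 4657 in pNCC. Rian, a non-coding RNA of the Dlk1 and Meg3 cluster, was at 0.280, 0.0606 and 0 CPM in iCEC against 546, 398 and 525 in pNCC (log2 -11.94, -13.90 without iCEC 1). Meg3 of the same cluster was at 0.302, 0 and 0 CPM in iCEC against 413, 218 and 259.6 in pNCC (log2 -11.33, -16.32 without iCEC 1) and Mirg at 0 in iCEC and 10.1, 6.86 and 8.44 CPM in pNCC (at least 109-fold lower). The 3 maternally expressed RNAs were thus at or below 0.302 CPM in every iCEC library. Igf2r, the receptor that clears Igf2, fell to 111, 116 and 104 CPM from 646, 635 and 621 CPM (5.75-fold, log2 -2.52 ± 0.15 SE, adjusted p = 0.000389).

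Lists of growth, metabolism and defence differed in the share of members called, from 4.17% in either direction for cholesterol synthesis to 54.5% for chemokines, against 31.3% of all tested genes. By direction, 16.1% of all tested genes were higher and 15.1% lower. Of 30 replication and mitosis genes 6 fell and 1 rose (median -1.28), 18 fell without iCEC 3, 3 without iCEC 1 and 2 without any 1 pNCC library. The helicase subunit Mcm2 was at 36.4, 42.9 and 28.1 CPM in iCEC against 75.6, 111 and 94.2 in pNCC (2.61-fold lower) and Mcm6 at 45.2, 65.7 and 63.8 CPM in iCEC against 118, 149 and 145 in pNCC (2.36-fold). Of 22 nuclear genes of the respiratory chain 10 rose and 0 fell, 3 without any 1 pNCC library. Cox6c, of complex IV, was at 146, 125 and 163 CPM in iCEC against 58.1, 62.8 and 66.0 in pNCC (2.32-fold) and Ndufb3, of complex I, at 60.1, 60.3 and 36.1 CPM in iCEC against 15.5, 15.9 and 14.9 in pNCC (3.38-fold). Glycolysis had 1 of 15 in each direction (4 higher without iCEC 3), cholesterol synthesis 1 of 24 lower, and the unfolded protein and amino acid response 3 of 16 lower (11 without iCEC 3 and 1 without pNCC 3). Targets of p53 and cell cycle inhibitors had 4 of 19 higher and 1 lower (8 higher without iCEC 2 and 2 without pNCC 1 or pNCC 2). Among 23 genes of oxidant defence 7 rose and 3 fell. Gpx2, a gut and epithelial glutathione peroxidase, was at 134, 80.9 and 130.4 CPM in iCEC against 0.123, 0.116 and 0 in pNCC (1395-fold higher). Catalase, Cat, was 4.63-fold higher (295, 375 and 461 CPM in iCEC against 87.3, 77.1 and 80.0 in pNCC) and haem oxygenase, Hmox1, 3.98-fold lower (59.3, 41.6 and 42.6 CPM in iCEC against 195, 194 and 182 in pNCC). The count of those that rose was 11 without iCEC 3, 4 without iCEC 1 and 3 or 4 without a pNCC library, and 1 fell without pNCC 2 or pNCC 3. Of 17 interferon-stimulated genes 3 fell and 1 rose (7 fell without iCEC 3 and 5 without iCEC 2). Bst2, a restriction factor for enveloped viruses, was at 34.0, 43.4 and 7.57 CPM in iCEC against 352, 227 and 286 in pNCC (10.2-fold lower) and the signal carrier Stat2 at 45.7, 47.5 and 17.2 CPM in iCEC against 248, 168 and 213 in pNCC (5.71-fold lower). Chemokines and cytokines had 6 of 22 in each direction, with 11 higher without iCEC 3, 3 higher and 3 lower without any 1 pNCC library, and 3 lower without iCEC 2. The membrane chemokine Cxcl16 rose (74.0, 139 and 86.7 CPM in iCEC against 8.56, 8.68 and 13.9 in pNCC, 9.63-fold). Csf1, the macrophage growth factor, fell (71.6, 45.7 and 35.3 CPM in iCEC against 313, 344 and 571 in pNCC, 8.06-fold).

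The spread within groups was itself large for some genes, described here with no test. In iCEC the genes of largest standard deviation of log2 CPM were Xist, Krt13, Ppbp, Sprr2d, Sprr3, BC037156, Muc21, Cybb, Muc4 and Ifit1bl1. Among the iCEC libraries all of these but Xist were near 0 in iCEC 3 alone. The platelet basic protein Ppbp was read at 764, 754 and 0.105 CPM, the cornified protein Sprr3 at 254, 182 and 0 CPM and Sprr2d, one of a family of similar copies whose reads are hard to assign, at 473, 814 and 0.105 CPM. The membrane mucin Muc4 was at 128, 694 and 0.131 CPM and the oxidase subunit Cybb at 51.8, 604 and 0.0524 CPM. The filter asks for counts in 3 libraries, so that Sprr3, Sprr2d and Muc4 were not tested. Sums over lists showed the same library apart. They were 665, 1387 and 116 CPM in iCEC against 1799, 1124 and 1483 in pNCC for interferon-stimulated genes and 25703, 26484 and 3255 CPM in iCEC against 2094, 2429 and 3128 in pNCC for oxidant defence. A sum can rest on a few abundant members. In the oxidant defence list 7 of 23 members were called higher, with a median log2 fold change of 0.825. The mitotic gene Mki67 was also low in iCEC 3, at 81.0, 119 and 7.63 CPM in iCEC. Cyclin D1, Ccnd1, was high in iCEC 3, at 405, 269 and 1747 CPM. Both were named after their values were seen. In pNCC the widest spread lay in genes of body position. Hoxc10, Hoxa10, Hoxc9, Hoxc8 and Hoxb9, which mark posterior body levels, were among the 10 widest together with Gm53, Thbs4, Igfbp2, Igf2 and Igfbp4. Hoxa10 was read at 28.0, 56.5 and 0 CPM in iCEC against 0, 0.0579 and 32.6 in pNCC, and Hoxc9 at 10.5, 3.21 and 0 CPM in iCEC against 0.245, 0.260 and 31.0 in pNCC. Hoxb9 was read at 24.98, 16.5 and 44.0 CPM in iCEC against 1.44, 2.17 and 73.8 in pNCC. Posterior Hox transcripts were thus high in pNCC 3 alone among pNCC, and present in iCEC 1 and 2 while Hoxa10 and Hoxc9 were at 0 in iCEC 3. Over the 28 tested Hox genes edgeR called 0, with 1 higher and 3 lower at an unadjusted p under 0.05 and 2 and 3 by DESeq2, and without iCEC 3 edgeR called 5 higher and 3 lower. The growth factor binding proteins Igfbp4 and Igfbp2 were lowest in pNCC 3, Igfbp4 at 625, 237 and 30.9 CPM and Igfbp2 at 131, 48.2 and 4.47 CPM.

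**Figure D5:**
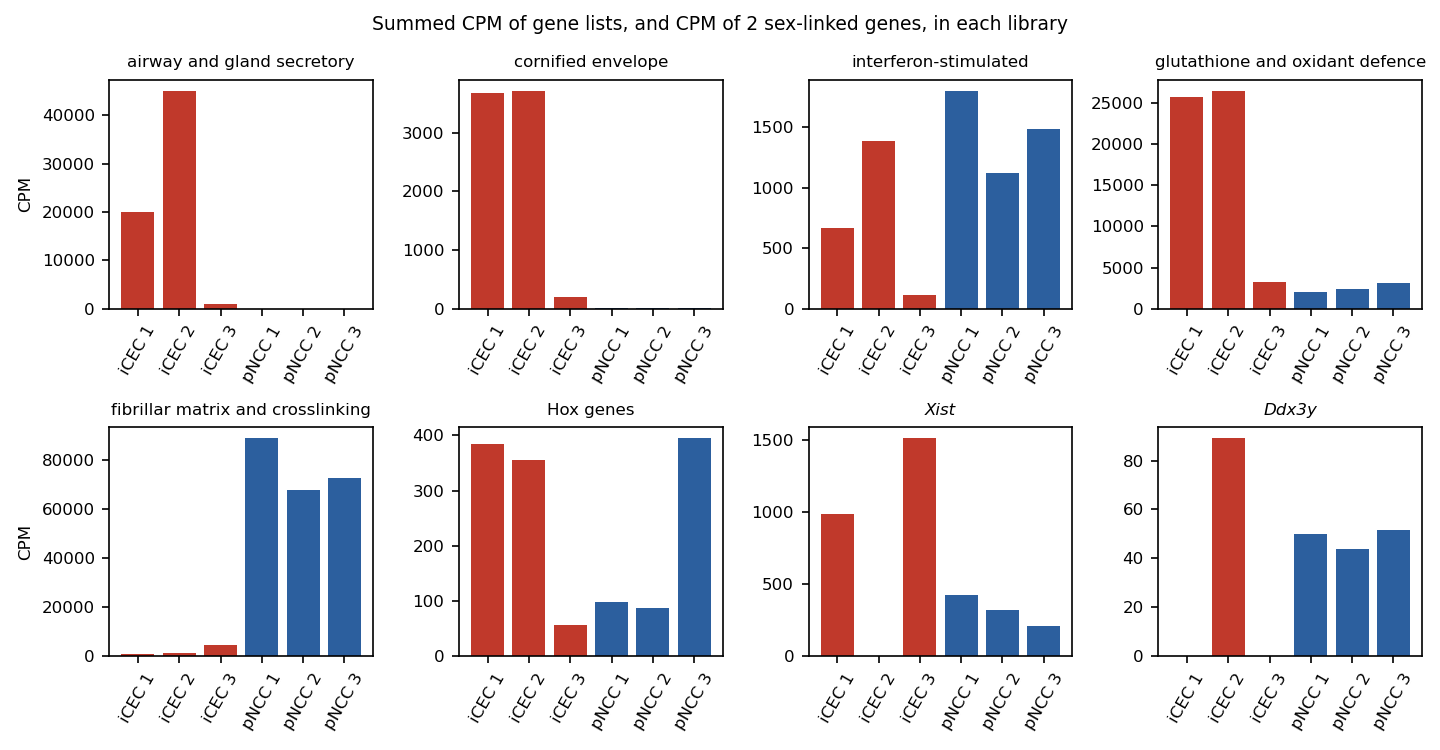
Summed CPM of 6 gene lists and CPM of Xist and Ddx3y in each library (bars start at 0; red iCEC, blue pNCC; no error bars, since each bar is 1 library). Secretory and cornified sums are lower in iCEC 3 than in iCEC 1 and 2, fibrillar matrix is high in all 3 pNCC libraries, Hox genes are high in iCEC 1, iCEC 2 and pNCC 3, and iCEC 2 alone lacks Xist. The secretory sum in iCEC 1 and 2 is mostly Ltf.

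Genes that take many counts included ones with differences near 0. Among the 500 genes of highest mean CPM, all tested, 232 were called, 114 higher and 118 lower. That was a larger share than the 31.3% of all tested genes. From the 500, 10 were taken for log2 fold changes nearest to 0. These included the chaperone Hspa4 (299, 242 and 470.1 CPM in iCEC against 288, 351 and 372 in pNCC) and citrate synthase, Cs (306, 320.5 and 280.1 CPM in iCEC against 249, 303 and 337 in pNCC). They also held the autophagy protein Gabarap (342, 355 and 304 CPM in iCEC against 338, 325 and 352 in pNCC) and the ubiquitin gene Ubb (559, 625 and 874 CPM in iCEC against 723, 681 and 683 in pNCC). None of these passed. The translation factor Eef1a1, among the 10 most abundant genes of both groups, was read at 9202, 6631 and 9373 CPM in iCEC against 8732, 9354 and 8799 in pNCC (log2 -0.09 ± 0.23 SE, adjusted p = 0.796). The mitochondrial mt-Co1 was read at 17126, 10058 and 16752 CPM in iCEC against 8072, 7874 and 9042 in pNCC (adjusted p = 0.0757). By class of gene, 34.2% of 13399 protein-coding genes were called, 23% of 1079 long non-coding RNA genes and 6.93% of 823 pseudogenes, whose reads may come from their parent genes.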

How the data were processed

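Polyadenylated RNA was sequenced in 3 iCEC and 3 pNCC libraries, per the labels' protocols, and the authors deposited whole-number read counts per gene symbol in 1 table. The submitters' processing notes name mm10 and edgeR, and the aligner, the counter and the use of strand are not given in the sources used here, so antisense and overlapping genes may share reads. Counts were tested as deposited with edgeR 4.0.16 (R 4.3.3): filterByExpr within these 6 libraries, TMM scaling, a robust quasi-likelihood fit by group, and Benjamini-Hochberg adjustment across every tested gene, calling those under 0.05. DESeq2 1.42.0, other filters, a minimum of 2-fold and leaving out each library were tried as alternatives. CPM use TMM-scaled library sizes. Genes were named by rule: the 10 largest called changes each way without overlap at 10 CPM or more, the 10 of highest CPM per group, up to 4 called members of each of 54 lists, whole lists for factors, TGF-β, keratins, eye and crest genes, the 10 widest within each group, the 10 smallest changes among 500 of high CPM, and the 5 markers. The text gives a part of them, and a few are not reported here, although they stay in the counts of their lists. Members, lists and tests were chosen with earlier results of these data known. No column of per-sample values was without a sample.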

Additional observations from a re-analysis of the deposited data

How the results depend on the processing

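The counts of called genes depended on the processing more than their directions did. Without pNCC 1, 2 or 3 or iCEC 3, edgeR called from 2322 to 7684 genes, from 1093 to 3977 higher and from 1229 to 3707 lower, against 5093, 2630 and 2463 with all libraries. With a minimum of 2-fold it called 2602 (1259 higher, 1343 lower). In the fit with the replicate number as a block it called 2864 (1429 higher, 1435 lower). The labels do not say that the numbers pair the libraries, so they were not taken as a pairing. Deviations of same-numbered iCEC and pNCC libraries had r = -0.06, -0.016 and -0.074 across genes. Because deviations were taken from means of 3 libraries, these values cannot exclude a pairing. No library correlated best with its own number. With DESeq2's size factors, DESeq2's own test, no filter and a filter of 1 CPM in 3 libraries the counts were 5060, 6589, 4528 and 4653. Of the 5093 calls, 4961, 5074, 4185 and 4524 were shared with these, all in the same direction. Of 421 genes that the naming rule gives, 263 were called, and 188 of these were called under every alternative run. The log2 fold change of Tfap2b, 1.67 with all libraries (adjusted p = 0.640), ran from -10.52 without iCEC 3 (adjusted p = 0.00903) to 2.27 without pNCC 2. The cause of these shifts was not tested. With 3 libraries a group, an exact permutation test of 1 gene could not go below p = 0.1, and floors of 3 counts cover counting error only.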
